A study of Mus musculus with 8 samples.

Results

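The interferon-inducible GTPases described here are 9 mouse genes of 2 related families. The guanylate-binding proteins (GBPs) are *Gbp2*, *Gbp3* and *Gbp7*, and the immunity-related GTPases (IRGs) are *Igtp*, *Irgm1*, *Irgm2*, *Iigp1*, *Ifi47* and *Tgtp1*. They were taken by gene symbol from the 41325 genes listed in each library, and all 9 are among the 11513 genes called expressed below, whose RPKM passed 1 in some library. RPKM scales the reads of a gene to its exon length and to the library's mapped reads. The symbols were chosen by a proposal made with the RPKM values of these 8 libraries and the ratios between them already known, so their levels and ratios are given as a description and without a test.

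The data are RNA-seq libraries of C3H10T1/2, a mouse line of mesenchymal stem cells that can be turned into fat cells. The study asked which genes of adipogenic differentiation need the histone demethylase KDM4D, the transcription factor NFIB or the histone methyltransferase MLL1. A control line, labelled shControl, and the stable knockdown lines shKDM4D, shNFIB and shMLL1 were compared at 2 times, day 0 and day 5, with 1 library for each line and day and thus 8 in total. Day 0 cells were confluent and had not been induced, and day 5 cells had been given insulin, dexamethasone and isobutylmethylxanthine, then insulin, then serum medium alone. The labels give shControl the genotype WT and the other lines a knockdown of their target. The study's RNA-seq methods call the control MSCs, and its list of shRNAs holds no control shRNA. Whether the sequenced control carried an shRNA or was selected is thus not clear. By the study's methods the knockdown lines were puromycin-resistant clones, of which the one sequenced is not given in the sources used here. A difference between lines can therefore not be told apart from a difference between clones or cultures. No interferon treatment is named for any condition.

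GBPs and IRGs are large GTPases that cells make when interferon binds its receptors. They assemble on the membranes around intracellular bacteria and parasites and help to break these membranes or to deliver them to autophagy proteins. Interferon gamma acts through JAK kinases and transcription factors that bind GAS elements, while type I interferons act through a complex with STAT2 and IRF9 that binds interferon-stimulated response elements (ISREs). Fibroblasts and other cells outside the immune system are known to respond as well.

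The promoters are shown first because they carry the elements by which these genes are known to be induced. The sequences are from RefSeq (GRCm38.p6), which gave a promoter window for 8 of the 9 genes, all except *Iigp1*. Each line holds the 110 bases before the RefSeq start site, 5′ to 3′ on the strand of the gene, and *Tgtp2*, the near copy of *Tgtp1*, is added for comparison. Capitals mark matches to GAAANNGAAA on either strand (the core of an ISRE) and to TTCNNNGAA (the core of a GAS element, which reads the same on both strands). A run of capitals longer than 10 bases is a pair of overlapping ISRE matches.
Gbp2, chr3:142620553-142620662, plus strand: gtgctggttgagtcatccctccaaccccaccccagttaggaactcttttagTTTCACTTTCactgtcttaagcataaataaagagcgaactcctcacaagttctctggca
Gbp3, chr3:142559934-142560043, plus strand: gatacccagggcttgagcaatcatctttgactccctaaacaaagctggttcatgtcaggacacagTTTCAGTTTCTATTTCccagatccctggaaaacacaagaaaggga
Gbp7, chr3:142530226-142530335, plus strand: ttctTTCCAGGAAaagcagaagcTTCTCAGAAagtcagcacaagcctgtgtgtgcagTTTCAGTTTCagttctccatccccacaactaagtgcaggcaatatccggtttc
Igtp, chr11:58199446-58199555, plus strand: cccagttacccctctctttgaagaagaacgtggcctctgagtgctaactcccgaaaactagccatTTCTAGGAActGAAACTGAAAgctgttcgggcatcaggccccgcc
Irgm1, chr11:48871421-48871530, minus strand: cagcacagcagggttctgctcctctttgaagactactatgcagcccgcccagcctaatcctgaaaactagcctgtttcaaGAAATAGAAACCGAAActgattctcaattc
Irgm2, chr11:58214867-58214976, plus strand: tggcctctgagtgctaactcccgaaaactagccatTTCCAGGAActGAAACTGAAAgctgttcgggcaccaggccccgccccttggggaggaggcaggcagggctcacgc
Tgtp1, chr11:48992247-48992356, minus strand: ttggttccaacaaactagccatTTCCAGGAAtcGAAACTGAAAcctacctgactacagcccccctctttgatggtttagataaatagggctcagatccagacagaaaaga
Tgtp2, chr11:49064213-49064322, minus strand: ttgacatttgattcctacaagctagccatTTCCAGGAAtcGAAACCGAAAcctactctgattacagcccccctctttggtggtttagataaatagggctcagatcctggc

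In the full window, from 250 bases before the start to 50 bases after it, an ISRE match was found in 7 of the 8 genes, the exception being *Ifi47*. A GAS match was found in 4 of the 8, namely *Gbp7*, *Igtp*, *Irgm2* and *Tgtp1*, and all 4 held an ISRE match too. Of all 32851 RefSeq promoter windows of this length, 3.44% held an ISRE match, 8.30% a GAS match and 0.454% both. Among the 8881 expressed genes with a window, the shares were 3.85%, 8.42% and 0.484%. In *Igtp*, *Irgm2*, *Tgtp1* and *Tgtp2* the GAS match came first and the ISRE match followed after 2 bases. In *Gbp7* 25 bases lay between the nearer of its 2 GAS matches and the ISRE match. *Gbp3* and *Irgm1* each had 2 overlapping ISRE matches, and the ISRE match of *Gbp2* lay 59 to 50 bases before the start. A match of letters is a description of the window, and binding was not measured in these files.

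The 3 GBP genes lie close together on chromosome 3 of GRCm38, all on the plus strand and all protein coding. *Gbp7* runs from 142530342 to 142550149, *Gbp3* from 142560026 to 142573209 and *Gbp2* from 142620602 to 142638008. A group of 5 IRG genes lies on chromosome 11. *Irgm1* (48861968 to 48871683) and *Tgtp1* (48985327 to 48994172) are on the minus strand, and *Ifi47* (49076587 to 49096974) is on the plus strand. *Igtp* (58199556 to 58207591) and *Irgm2* (58199618 to 58222782) overlap on the plus strand and share 162 exon bases, which is 8.01% of the exons of *Igtp*. These spans are those of GENCODE M21, and the RefSeq starts used for the promoters can differ from them. The promoter window of *Irgm2* (58214867 to 58214976) lies inside its span. *Iigp1* lies apart on chromosome 18 (60376027 to 60392634, plus strand). Some reads cannot be placed with certainty. Of the runs of 50 bases in the transcripts of *Tgtp1*, 81.2% also occur in another gene and 79.4% in *Tgtp2*, so *Tgtp1* is reported as uncertain. The share was 12.7% in *Gbp7*, 11.8% in *Igtp* and 7.77% in *Irgm2*, and between 0.310% and 3.75% in the other genes. How reads with several matches were counted is not given in the sources used here.

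Whole reads were recovered from the RPKM values, and the 8 libraries held between 15842221 and 38202580 mapped reads, with the shMLL1 libraries the deepest on both days. An RPKM of between 0.0785 and 0.189 corresponds to 3 reads on 1 kb of exons. Intervals below are exact 95% intervals of a log2 ratio from the reads of both libraries. They cover counting error only and hold no spread between cultures. The targeted genes were lower in their own lines for *Nfib* (RPKM 9.92 in shControl and 2.31 in shNFIB at day 0, 17.0 and 3.38 at day 5) and for *Kmt2a*, which encodes MLL1 (5.17 and 2.00 at day 0, 5.27 and 1.63 at day 5). *Kdm4d* had 2 reads in shControl and 1 read in shKDM4D at day 0, and 13 and 4 reads at day 5. These are too few reads to judge this knockdown, which the study reported from RT-qPCR and immunoblots. The summed RPKM of 10 mesenchymal markers lay between 2222 and 3656, although *Nt5e* was at or under an RPKM of 0.0218 in every library. *Thy1*, named here after its values were seen, was at 25.0 and 22.6 in shControl, 11.8 and 11.1 in shMLL1, and at or under 0.139 in the shKDM4D and shNFIB libraries. The libraries are bulk samples, so fewer cells of a type and less RNA per cell cannot be told apart.

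All 9 GTPases had their highest level in shMLL1 cells at day 5 and their second highest in shNFIB cells at day 5. In 8 of the 9 the lowest level was in shMLL1 cells at day 0, so the line with the least GTPase RNA before induction was the one with the most at day 5. *Iigp1* was the exception, with its lowest level in shNFIB cells at day 0. The summed RPKM of the 9 genes at day 0 was, for shControl, shKDM4D, shNFIB and shMLL1 cells, 29.0, 15.7, 20.1 and 11.3. At day 5 it was 69.2, 43.4, 226 and 702 in the same order. The 3 GBPs made up 33.9 of the 69.2 in shControl cells at day 5 and 240 of the 702 in shMLL1 cells, and the 6 IRGs the remaining 35.3 and 462.

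**Figure D1:**
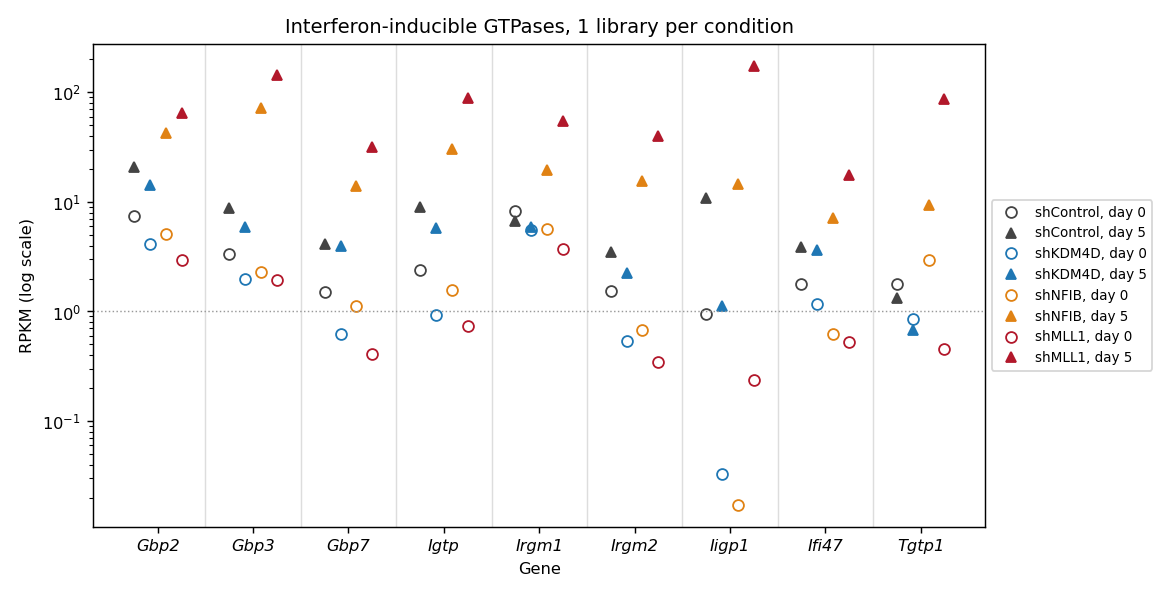
RPKM of the 9 GTPases (log axis) in the 8 libraries, coloured by line, with open circles for day 0 and filled triangles for day 5. Each point is 1 library and the dotted line is an RPKM of 1. In every gene the day 5 points of shMLL1 and shNFIB are the highest and the second highest.

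Before induction the GTPases were weakly expressed. At day 0, 8 of the 9 had an RPKM over 1 in shControl cells, and 4, 6 and 3 of the 9 in the shKDM4D, shNFIB and shMLL1 lines. *Irgm1*, a regulatory IRG that binds the membranes of the cell itself, was the most expressed member in all 4 day 0 libraries. At day 5 the most expressed member differed between the lines. It was *Gbp2* in shControl and shKDM4D cells, *Gbp3* in shNFIB cells and *Iigp1* in shMLL1 cells.

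Among the GBPs, *Gbp2* encodes a protein that is recruited to pathogen vacuoles. In the order shControl, shKDM4D, shNFIB and shMLL1, which is kept for all lists of 4 values that follow, its RPKM was 7.43, 4.11, 5.11 and 2.94 at day 0 and 20.9, 14.2, 42.8 and 65.1 at day 5. The shControl and shKDM4D levels at day 5 lay well above those of day 0, and its 22.1-fold range over the 8 libraries was the smallest of the GBPs. *Gbp3* had an RPKM of 3.38, 1.96, 2.31 and 1.93 at day 0 and of 8.84, 5.89, 72.7 and 143 at day 5. The knockdown lines shNFIB and shMLL1 thus stood apart from the other lines by 8-fold or more in this gene at day 5. *Gbp7* had an RPKM of 1.49, 0.620, 1.13 and 0.410 at day 0 and of 4.15, 3.94, 14.1 and 31.5 at day 5. In shControl and shKDM4D cells at day 5 the levels of *Gbp7* did not differ beyond counting error (log2 ratio -0.07, interval -0.26 to 0.11).

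The regulatory IRGs *Igtp*, *Irgm1* and *Irgm2* protect the membranes of the cell from the effector IRGs. *Igtp* had an RPKM of 2.40, 0.937, 1.56 and 0.738 at day 0 and of 8.98, 5.79, 30.3 and 88.5 at day 5. *Irgm2* had 1.53, 0.541, 0.682 and 0.348 at day 0 and 3.52, 2.24, 15.5 and 39.9 at day 5. On each day both genes ranked the lines alike, although their shared exon bases mean that a few reads may belong to either. *Irgm1* had an RPKM of 8.24, 5.49, 5.68 and 3.69 at day 0 and of 6.65, 5.86, 19.5 and 54.7 at day 5. Its range over the libraries was 14.8-fold, the smallest of the 9 genes, and its day 5 level in shControl cells was under its day 0 level.

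The effector IRGs *Iigp1*, *Ifi47* and *Tgtp1* load onto the vacuoles of parasites. *Iigp1* varied most of all 9 genes. It had 79, 2, 1 and 28 reads at day 0 (RPKM 0.950, 0.0328, 0.0172 and 0.235), and 660, 76, 714 and 20766 reads at day 5 (RPKM 10.9, 1.13, 14.4 and 175). Its annotated exon length gave no whole reads, so these reads rest on a length fitted to the RPKM values. *Ifi47* had an RPKM of 1.78, 1.18, 0.628 and 0.529 at day 0 and of 3.89, 3.63, 7.10 and 17.7 at day 5, the lowest of the 9 genes in both shNFIB and shMLL1 cells at day 5. *Tgtp1* had 1.77, 0.846, 2.94 and 0.457 at day 0 and 1.32, 0.678, 9.34 and 86.6 at day 5. In shControl and shKDM4D cells it was, with *Irgm1*, the member not more than 2-fold higher at day 5 than at day 0.

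At day 0 the GTPases were mostly lower in the knockdown lines than in shControl cells, with an exception of gene and one of scale. In shKDM4D cells 5 of the 9 were lower by more than 2-fold and 0 were higher, with a median log2 ratio of -1.06, and all 9 intervals lay below 0. Over all expressed genes 4.26% were lower and 1.98% higher by that limit, and the median was -0.00. In shMLL1 cells 8 of the 9 were lower by more than 2-fold, with a median of -1.75, and 0 were higher. The shares of all expressed genes were 7.43% lower and 1.67% higher, with a median of -0.07. In shNFIB cells 3 were lower by more than 2-fold (*Irgm2*, *Iigp1* and *Ifi47*) and 0 were higher, with a median of -0.55 beside 0.03 over all expressed genes, of which 6.05% were lower and 2.95% higher. With 1 added to each RPKM, which shrinks the ratios of such low levels, the counts of members lower in the 3 knockdown lines were 0, 0 and 1. *Tgtp1* was the exception of gene, being above shControl in shNFIB cells (log2 ratio 0.73, interval 0.41 to 1.06).

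The exception of scale was the ratio to *Gapdh*, whose RPKM was 159 in shNFIB and 247 in shControl cells at day 0. Divided by *Gapdh*, *Gbp2*, *Gbp3*, *Gbp7*, *Igtp* and *Irgm1* were above shControl in shNFIB cells at day 0, and the median of the 9 genes was 0.09. The median of all expressed genes moved with it to 0.67, so the median of the 9 stayed under it, and 19.7% of the expressed genes were then higher and 3.01% lower. On the same scale the shares in shKDM4D cells at day 0 were 1.01% higher and 8.40% lower (median of all genes -0.40), and quantile normalization gave 2.16% higher and 5.38% lower in shMLL1 cells. The direction of every member at day 0 in shKDM4D and shMLL1 cells was the same on each scale tried.

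Single ratios at day 0 show how far the members differed. In shMLL1 cells the log2 ratio to shControl ran from -0.81 in *Gbp3* (-1.06 to -0.56) to -2.13 in *Irgm2* (-2.63 to -1.66). *Gbp2* was at -1.34 (-1.55 to -1.12), *Igtp* at -1.70 (-2.17 to -1.24) and *Tgtp1* at -1.95 (-2.42 to -1.50). In shKDM4D cells *Irgm1* had the smallest difference, -0.59 (-0.73 to -0.45), and *Irgm2* and *Igtp* were at -1.50 (-2.04 to -0.98) and -1.35 (-1.92 to -0.82). *Iigp1* stood apart, with -4.86 (-7.93 to -2.96) from 2 reads in shKDM4D and -5.79 (-11.11 to -3.27) from 1 read in shNFIB cells. In shMLL1 cells it was at -2.02 (-2.69 to -1.38).

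**Figure D2:**
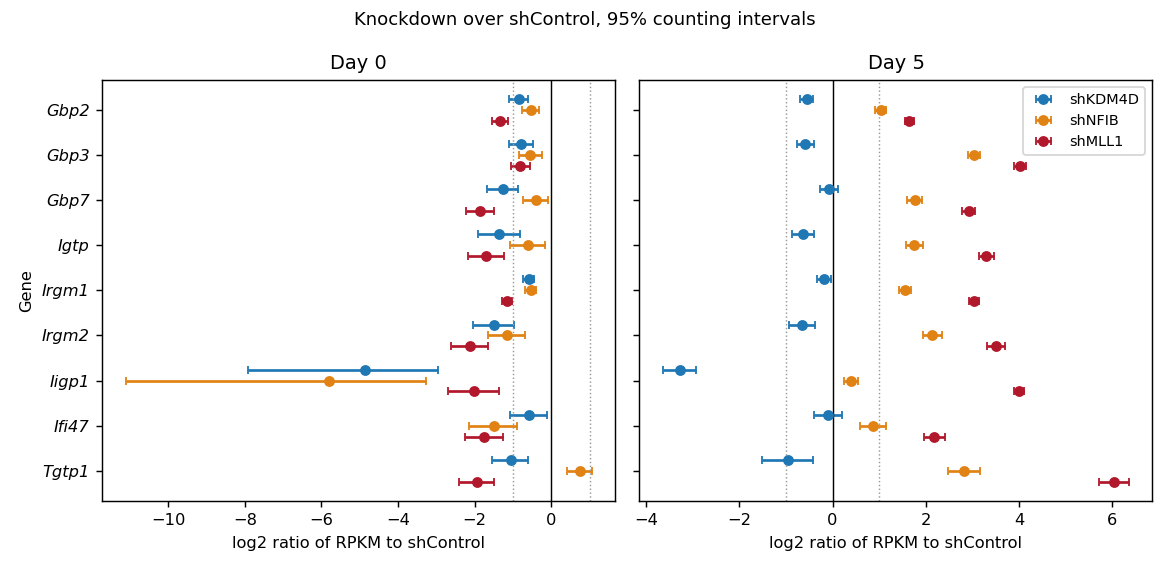
Log2 ratio of RPKM of each knockdown line to shControl at day 0 (left) and day 5 (right) for the 9 GTPases, with exact 95% counting intervals as bars and dotted lines at 2-fold. At day 0 all points but shNFIB *Tgtp1* lie below 0 (with a ratio to *Gapdh*, 5 genes of shNFIB move above it), and at day 5 all points of shNFIB and shMLL1 lie above 0.

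At day 5 the shMLL1 cells had more RNA of every one of the 9 GTPases than shControl cells, and the shNFIB cells followed. In shMLL1 cells all 9 were more than 2-fold higher, with a median log2 ratio of 3.30, against 0.07 over all expressed genes, of which 5.25% were higher and 4.02% lower. *Tgtp1* had the largest ratio, 6.03 (5.72 to 6.36), or 65.5-fold, and *Gbp2* the smallest, 1.64 (1.54 to 1.74). *Gbp3* was at 4.02 (3.90 to 4.14), *Iigp1* had an interval that overlaps it (3.88 to 4.11), and *Irgm2*, *Igtp*, *Irgm1* and *Gbp7* lay between 2.93 and 3.50. *Ifi47* was at 2.19 (1.97 to 2.41). With the ratio to *Gapdh* the median of all genes was -0.29, that of the 9 genes was 2.94, and 3.56% of the expressed genes were higher and 7.74% lower.

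In shNFIB cells at day 5, 7 of the 9 were more than 2-fold higher and all 9 intervals lay above 0. The median log2 ratio was 1.76, beside 0.09 over all expressed genes, of which 5.54% were higher and 5.67% lower. *Gbp3* had the largest ratio, 3.04 (2.91 to 3.17), or 8.22-fold, followed by *Tgtp1* at 2.82 (2.48 to 3.17) and *Irgm2* at 2.14 (1.94 to 2.35). *Gbp2* was at 1.03 (0.92 to 1.15), close to the limit of 2-fold. The genes within 2-fold were *Ifi47* at 0.87 (0.59 to 1.14) and *Iigp1* at 0.40 (0.25 to 0.56). With the reads of *Tgtp1* and *Tgtp2* summed, the ratio was 3.82 in shNFIB and 6.18 in shMLL1 cells, and the cause of the difference from *Tgtp1* alone was not tested.

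The direct comparison of both lines at day 5 does not use the shControl library, which all the ratios above share. All 9 genes were higher in shMLL1 than in shNFIB cells, from 1.52-fold in *Gbp2* to 12.1-fold in *Iigp1*, with a median of 2.57-fold and every interval above 0. Of the 9, 7 were more than 2-fold higher and 0 lower, all but *Gbp2* and *Gbp3*. Over all expressed genes 6.08% were higher and 3.93% lower by that limit, and the median log2 ratio was -0.01 beside 1.36 in the 9 genes. *Gbp3* differed by 1.97-fold although it was the leading gene of shNFIB cells. *Tgtp1* differed by 9.28-fold. At day 0 the ratio of shMLL1 to shNFIB ran the other way in most genes, from 0.155-fold in *Tgtp1* to 13.7-fold in *Iigp1*, with a median of 0.576-fold. More than 2-fold lower were 3 (*Gbp7*, *Igtp* and *Tgtp1*) and higher was 1, *Iigp1*, against 6.6% lower and 3.73% higher over all expressed genes (median log2 ratio -0.11). The intervals of *Gbp3* and *Ifi47* spanned 0 at day 0.

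The ratios of both days to shControl had opposite signs in most members. With both intervals off 0, 9 of the 9 were below shControl at day 0 and above it at day 5 in shMLL1 cells, and 8 of the 9 in shNFIB cells. Of the 11448 expressed genes with an annotated exon length, 11.1% did so in shMLL1 and 6.59% in shNFIB cells.

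In shKDM4D cells at day 5 the GTPases were close to or a little below shControl cells. Of the 9 genes 1 was more than 2-fold lower and 0 were higher, with a median log2 ratio of -0.59, beside 0.01 over all expressed genes, of which 4.57% were lower and 1.88% higher. The gene past the limit was *Iigp1*, 9.71-fold lower (log2 ratio -3.28, interval -3.64 to -2.94). *Gbp2*, *Gbp3*, *Igtp* and *Irgm2* lay between -0.65 and -0.56, and *Tgtp1* was at -0.96 (-1.51 to -0.43). The intervals of *Gbp7* and *Ifi47* spanned 0.

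**Figure D3:**
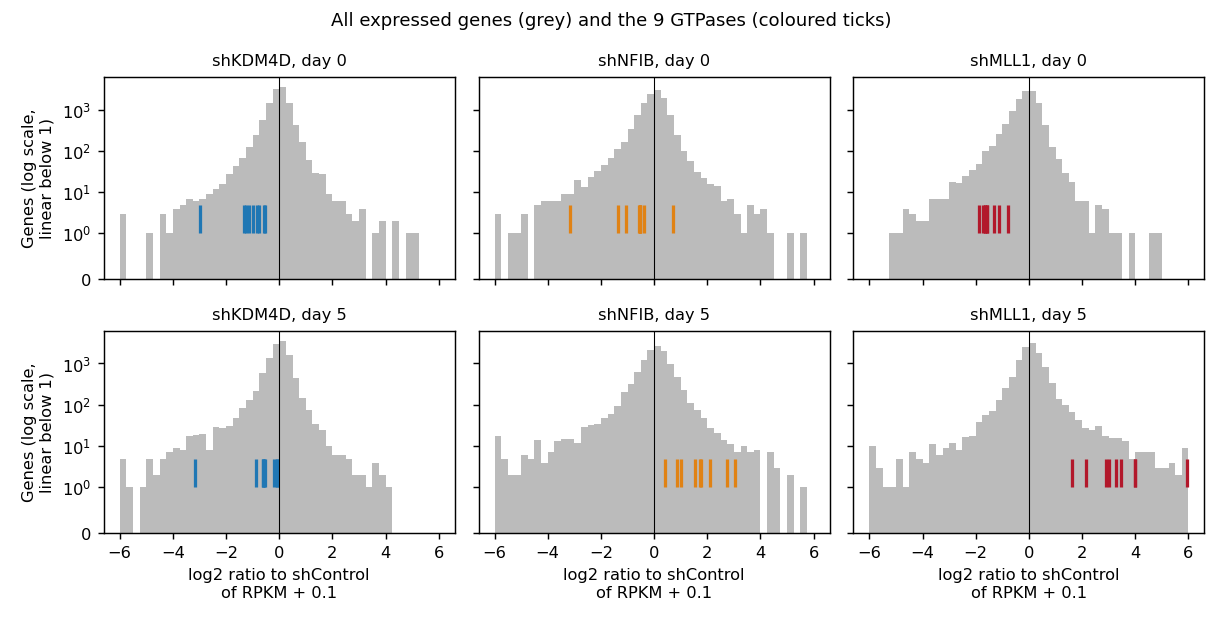
Histograms of the log2 ratio to shControl of RPKM + 0.1 over the 11513 expressed genes (grey, counts on a log axis that is linear below 1, end bins holding all values beyond them), with coloured ticks for the 9 GTPases. At day 5 all ticks lie right of 0 in shMLL1 (median 3.29) and shNFIB (1.74) and left of it in shKDM4D (-0.58), while at day 0 all lie left of 0 except *Tgtp1* in shNFIB (5 more move right of 0 when divided by *Gapdh*).

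Most of the GTPases were also higher at day 5 than at day 0 in shControl cells. In that line 7 of the 9 were more than 2-fold higher and 0 were lower, with a median log2 change of 1.39. Over all expressed genes 13.0% were higher and 8.56% lower, and the median was 0.03. *Iigp1* changed by 3.53 (3.19 to 3.88), or 11.5-fold, *Igtp* by 1.91 (1.61 to 2.21) and *Gbp2* by 1.49 (1.34 to 1.65). *Irgm1* and *Tgtp1* went the other way within 2-fold, at -0.31 (-0.44 to -0.18) and -0.42 (-0.82 to -0.02). With *Tgtp2* reads added, the *Tgtp1* change was -0.12.

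In shKDM4D cells 7 of the 9 were higher at day 5 and 0 were lower, with a median of 1.79 beside 0.03 over all genes (12.8% higher and 8.44% lower). *Gbp7* changed by 2.67 and *Igtp* by 2.63, each more than in shControl cells, and *Iigp1* by 5.10 (3.20 to 8.17) from 2 reads. *Irgm1* at 0.09 (-0.06 to 0.25) and *Tgtp1* at -0.32 (-0.92 to 0.28) did not change beyond counting error, and the sign of *Tgtp1* turned with the ratio to *Gapdh*. On that scale 23.5% of all expressed genes were higher and 4.28% lower.

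In shNFIB cells all 9 were more than 2-fold higher at day 5, with a median of 3.64 beside 0.09 over all genes (12.6% higher and 4.96% lower). *Tgtp1* changed least, by 1.67 (1.41 to 1.92), and *Gbp3* by 4.97, or 31.4-fold. *Iigp1* went from 1 read to 714 reads, a log2 change of 9.72 with a wide interval from 7.23 to 15.02. Quantile normalization gave 9.35% of all genes higher and 7.29% lower in this comparison, and the ratio to *Gapdh* 7.30% and 17.5%.

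In shMLL1 cells all 9 were higher as well, with a median of 6.26 beside 0.17 over all genes (20.4% higher and 6.89% lower). *Irgm1* changed least, by 3.89 (3.79 to 3.99). *Igtp* was 120-fold higher (log2 change 6.91, 6.53 to 7.31), *Tgtp1* 189-fold (7.57, 7.19 to 7.97) and *Iigp1* 743-fold (9.54, 9.01 to 10.13). After quantile normalization 13.3% of all genes were higher and 11.9% lower in shMLL1 cells, and after median-of-ratios scaling 16.8% and 9.69%. The direction of the 9 genes was the same on each of these scales. The changes within a line and the ratios to shControl use some of the same libraries and are no independent evidence of each other.

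Other interferon-inducible GTPase genes did not all follow the 9 genes. The wider list held 23 further genes, most of them GBPs and IRGs but also the antiviral *Mx1* and *Mx2* and the very large GTPase *Gvin1*, and 21 were in the files and 19 expressed. In shMLL1 cells at day 5 the 19 were more than 2-fold above shControl cells, but 5 of them (*Gbp5*, *Gvin1*, *Gm4841*, *Gm12185* and *Mx1*) had no RPKM over 1 in a shControl library, and 3 of these passed that limit in shMLL1 cells at day 5 alone, so they had to differ. Of the 14 with an RPKM over 1 in a shControl library, as all 9 members had, 14 were higher in shMLL1 cells, 4 were higher and 5 lower in shNFIB cells, and 0 were higher and 6 lower in shKDM4D cells. Of all 19, in shNFIB cells 7 were higher, *Mx1* and *Mx2* among them, and 5 lower, and in shKDM4D cells 1 was higher and 8 were lower. Over all expressed genes at day 5, 5.25%, 5.54% and 1.88% were higher in shMLL1, shNFIB and shKDM4D cells. In these lines 4.02%, 5.67% and 4.57% were lower. At day 0, 11, 10 and 13 of the 19 were lower in the shKDM4D, shNFIB and shMLL1 lines, with 1, 4 and 3 higher. Of the 14, in the same order, 9, 9 and 13 were lower and 0, 1 and 1 higher. The shares of all expressed genes at day 0 were 4.26%, 6.05% and 7.43% lower and 1.98%, 2.95% and 1.67% higher. For the 19 genes, the median log2 ratio of RPKM + 0.1 at day 5 was 2.70 in shMLL1, 0.80 in shNFIB and -0.79 in shKDM4D cells.

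When the members and the other GTPases were sorted by chromosome, leaving out the antiviral *Mx1* and *Mx2*, the shNFIB values at day 5 differed between the gene clusters. On chromosome 3 all 5 expressed genes (*Gbp2*, *Gbp3*, *Gbp7*, *Gbp2b* and *Gbp5*) were more than 2-fold above shControl, with a median log2 ratio of 1.47. The median gene, *Gbp5*, had no RPKM over 1 in a shControl library, so it was counted through a knockdown library. On chromosome 11, 6 of 9 were higher and 0 lower, with a median of 1.76. Among the 6 was *Gm12185*, which passed an RPKM of 1 in shMLL1 cells at day 5 alone. Over all expressed genes 5.54% were higher and 5.67% lower in shNFIB cells at day 5. On chromosome 5, which holds *Gbp4*, *Gbp6*, *Gbp8*, *Gbp9*, *Gbp10* and *Gbp11*, 0 of 6 were higher and 3 were lower, with a median of -1.21. On chromosome 18, 0 of 4 were higher and 2 were lower, with a median of -2.06. On chromosome 7 *Gm4070* was higher, with a log2 ratio of 2.15, and *Gvin1* was listed at 0 in shNFIB and shControl cells. Members of 1 cluster share a neighbourhood and partly their sequence, so these counts are not independent, and the difference between clusters was not tested.

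Single genes show the split. *Gbp2b*, of the same chromosome 3 cluster as *Gbp2*, had an RPKM at day 5 of 13.7, 7.88, 37.0 and 54.1. *Gbp8* on chromosome 5 had 2.31, 0.0134, 0.110 and 5.38, a log2 ratio of -4.39 in shNFIB cells (-5.86 to -3.24). *Gm4951*, on chromosome 18 like *Iigp1*, had 5.20, 0.595, 0.430 and 49.9. Its log2 ratio was -3.60 (-4.38 to -2.91) in shNFIB and 3.26 (3.08 to 3.45) in shMLL1 cells. *Iigp1*, the member with the smallest ratio in shNFIB cells, had the highest ratio of the 4 genes of its chromosome there. In shKDM4D cells at day 5, 4 of the 6 genes of chromosome 5 and all 4 of chromosome 18 were more than 2-fold lower, and 0 of the 5 and 0 of the 9 on chromosomes 3 and 11. Among those of chromosome 18, *Gm4841* had no RPKM over 1 in a shControl library and was at 0 in shKDM4D cells. Over all expressed genes 4.57% were lower in this comparison. On chromosome 7 *Gm4070* was at -0.84, and *Gvin1* had 18 reads beside 0 in shControl. In shMLL1 cells all genes of all these chromosomes were higher. Of them, *Gvin1*, *Gm4841* and *Gm12185* passed an RPKM of 1 in shMLL1 cells at day 5 alone, so they had to be higher there.

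**Figure D4:**
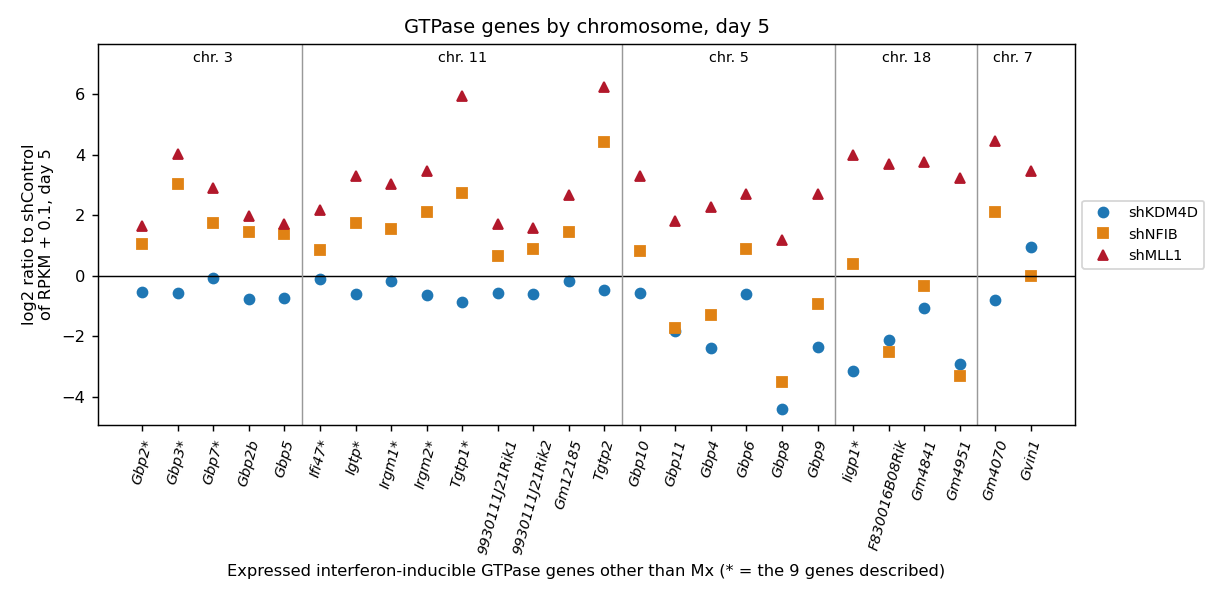
Log2 ratio to shControl at day 5 of RPKM + 0.1 for each expressed interferon-inducible GTPase gene other than Mx, ordered by chromosome, with circles for shKDM4D, squares for shNFIB and triangles for shMLL1 (1 library each). Squares lie above 0 on chromosomes 3 and 11 and on both sides of 0 on chromosomes 5 and 18, while all triangles lie above 0. The triangles of *Gvin1*, *Gm4841* and *Gm12185* had to, since these genes passed an RPKM of 1 in that library alone.

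The genes upstream were examined by their roles. None of the 13 interferon ligand genes was expressed. *Ifng* was at 0 in all 8 libraries, and reads for any ligand were found in shMLL1 cells alone, with 1 read each of *Ifnb1* and *Ifne* at day 0, and 3 reads of *Ifnb1*, 1 of *Ifna2* and 1 of *Ifne* at day 5. The shMLL1 libraries were also the deepest. A count of 0 allows up to 3 reads, which at the depth of shMLL1 cells at day 5 would be 5.92, 5.29 and 7.22 reads for the other lines. These lie above the 5 ligand reads found in shMLL1 cells, so a difference between the lines was not detectable at this depth.

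All 7 receptor and kinase genes were expressed, and in each knockdown line at day 5 they lay within 2-fold of shControl except *Ifngr1* in shKDM4D cells. *Ifngr1*, a chain of the interferon gamma receptor, had an RPKM at day 5 of 34.0, 15.1, 20.3 and 18.5. *Ifngr2* (23.2, 23.7, 27.5 and 17.5), *Ifnar1* (18.4, 19.0, 17.9 and 12.1) and *Ifnar2* (35.2, 46.9, 39.1 and 28.8) stayed closer. The kinases *Jak1*, *Jak2* and *Tyk2* lay between 18.9 and 33.5, between 10.3 and 15.1, and between 2.05 and 2.69.

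Of 7 expressed transcription factors examined, 3 were more than 2-fold above shControl at day 5 in shNFIB cells, and 3 in shMLL1 cells, and they were *Stat2*, *Irf7* and *Irf9* in both. *Stat2* had an RPKM of 6.54, 5.27, 23.3 and 41.8 and *Irf9* 7.91, 8.16, 26.7 and 33.0. *Irf7*, an amplifier of the type I response, had 1.89, 1.21, 13.3 and 80.6, a log2 ratio of 5.41 in shMLL1 cells (5.17 to 5.67). *Irf1*, through which interferon gamma is known to induce many GTPases, stayed within 2-fold of shControl with 10.8, 8.89, 11.3 and 15.7. Within a line it was more than 2-fold higher at day 5 than at day 0 in shNFIB cells (from 4.38, log2 change 1.37, interval 1.17 to 1.56) and in shMLL1 cells (from 5.55, interval 1.39 to 1.62). In shControl and shKDM4D cells its log2 changes were 0.85 and 0.72. *Stat3*, *Irf2* and *Irf3* also stayed within 2-fold of shControl at day 5 in each knockdown line, and within 2-fold between the days in each line.

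Of 6 inhibitors of the pathway, *Usp18* was the one past 2-fold at day 5. This protease blocks the type I receptor, and its RPKM was 1.11, 0.630, 17.0 and 66.7. *Socs1* (0.961, 1.07, 1.69 and 1.74), *Socs3*, *Ptpn2*, *Ptpn6* and *Pias1* stayed within 2-fold. At day 0 *Usp18* was at 1.01, 0.183, 0.0576 and 0.357, below shControl in all 3 knockdown lines as most GTPases were, also when divided by *Gapdh*. The RPKM of 3 reads on 1 kb was 0.154 in shKDM4D and 0.161 in shNFIB cells. The shKDM4D value of *Usp18* was thus close to this floor and the shNFIB value under it. *Ptpn6* was also more than 2-fold lower in shNFIB cells at day 0.

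Most other targets of interferon were higher at day 5 in the same 2 lines as the 9 genes. Of 17 expressed type I targets, 17 were more than 2-fold higher in shMLL1 and 14 in shNFIB cells, with median log2 ratios of RPKM + 0.1 of 4.50 and 3.33. On this scale the 9 GTPases had 3.29 and 1.74. Of the 17, 6 had no RPKM over 1 in a shControl library and so passed through a knockdown library, and the 11 others were all higher in both lines. Over all expressed genes 5.25% were higher in shMLL1 and 5.54% in shNFIB cells. *Ifit3*, which binds foreign RNA together with *Ifit1*, had an RPKM of 48.5, 45.7, 489 and 1133 at day 5. *Ifit1* had 17.0, 13.5, 273 and 386, *Bst2*, which tethers viruses, 10.7, 6.97, 127 and 220, and the ubiquitin-like *Isg15* 3.69, 1.90, 76.6 and 192. In shKDM4D cells 0 of the 17 were higher and 5 were lower. Of the 11 with an RPKM over 1 in a shControl library, 0 were higher and 2 lower there. The shares of all expressed genes were 1.88% higher and 4.57% lower. At day 0 14, 11 and 8 of the 17 were lower in the shKDM4D, shNFIB and shMLL1 lines, and 1 was higher, in shMLL1 cells. Of the 11, in the same order, 8, 6 and 6 were lower and 0 were higher. Over all expressed genes 4.26%, 6.05% and 7.43% were lower and 1.98%, 2.95% and 1.67% higher at day 0.

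Of 12 expressed further targets of interferon gamma, 11 were higher in shMLL1 and 10 in shNFIB cells at day 5, with medians of 2.71 and 1.28. Of the 8 among them with an RPKM over 1 in a shControl library, 7 and 6 were higher. The shares of all expressed genes were 5.25% and 5.54%. The antigen presentation genes *H2-K1* (47.6, 31.6, 128 and 609), *H2-D1* (34.3, 21.3, 75.8 and 208) and *B2m* (1291, 1283, 2783 and 4475) kept the order of lines of the GTPases. *Cd74*, the invariant chain of class II molecules, did not, with 12.0, 8.20, 63.5 and 8.59. The 14 genes of ATG8 conjugation and vacuole lysis, with which GBPs and IRGs work, mostly stayed within 2-fold at day 5. In shMLL1 cells 2 were higher, *Casp4* and *Rnf213*, named after their values were seen. In shNFIB cells 1 was higher, *Rnf213*, and 3 were lower, *Atg12*, *Gabarapl1* and *Aim2*. In shKDM4D cells 1 was lower, *Aim2*. These too are named after their values were seen. Over all expressed genes 5.67% were lower in shNFIB and 4.57% in shKDM4D cells. The most expressed of them, *Sqstm1* and *Gabarap*, had 174 and 184 in shControl and 187 and 180 in shMLL1 cells.

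**Figure D5:**
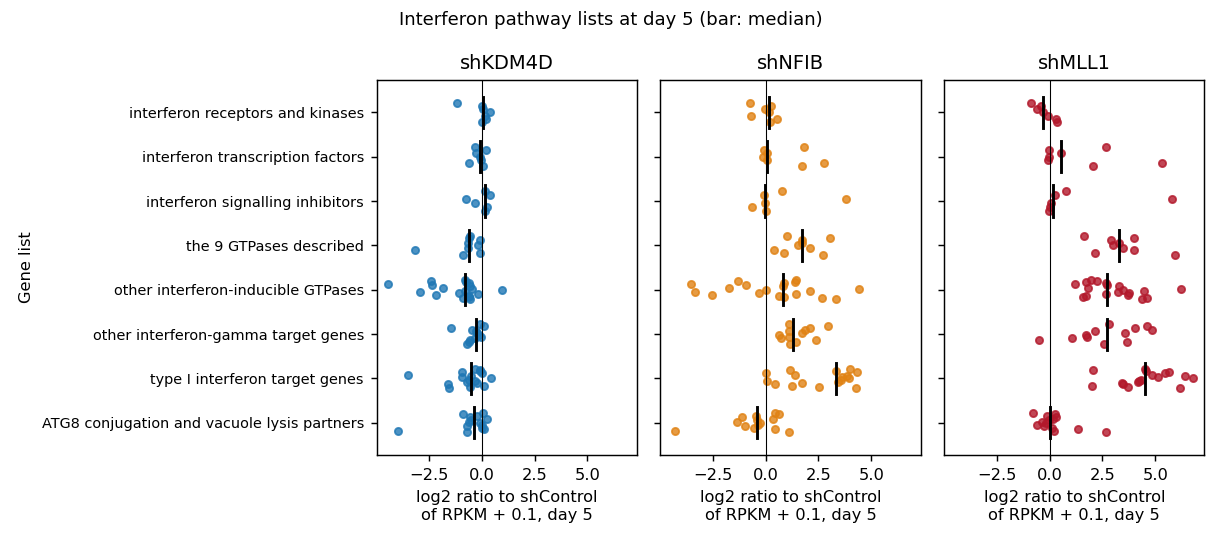
Log2 ratio to shControl at day 5 of RPKM + 0.1 for the expressed genes of 8 lists (rows), with 1 panel per knockdown line, 1 point per gene and a black bar at the median. In shNFIB and shMLL1 the bars of the 9 GTPases (1.74 and 3.29) and of the interferon target lists lie right of 0 and those of the receptors and kinases (0.15 and -0.29) near it.

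Markers of other cells were read beside these results. Of 13 immune and endothelial markers, the summed RPKM at day 5 was 4.38, 5.27, 7.03 and 9.80, in a range of 4.38 to 9.80 over all 8 libraries, and nearly all of it came from *Cd14* and *Cd68*. *Cd14* had 3.06, 4.03, 6.38 and 8.24 at day 5 and was more than 2-fold above shControl in shNFIB and shMLL1 cells, while at day 0 it had 6.61, 4.79, 5.86 and 6.94. Its part in the GTPase levels was not tested. Without these genes the sums lay between 0.0280 and 0.393 and did not follow the order of the lines. The leukocyte marker *Ptprc* had at most 2 reads in any library, and *Cd3e*, *Ncr1* and *Tyrobp* were at 0 in all. The summed RPKM of 8 adipocyte markers at day 5 was 831, 39.1, 12.1 and 12.5, so the lines with the most GTPase RNA had the lowest marker sums. In shKDM4D cells, however, the marker sum and the GTPase sum (43.4 beside 69.2) were both below shControl. The part of fat cell formation in the GTPase levels was not tested.

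Over the 8 libraries the 9 genes mostly followed each other. In shControl cells, however, *Irgm1* and *Tgtp1* were lower at day 5 than at day 0 and the other 7 were higher. On the log2(RPKM + 0.1) scale, Pearson's r of a member with the mean of the other 8 members was highest in *Irgm2* (0.997) and lowest in *Tgtp1* (0.848), with *Irgm1* at 0.938 and *Iigp1* at 0.940. Among expressed genes that are not members, the 8 with the pattern most like the mean of the 9 were *Trim30a* (0.994), *Ifi35* (0.992), *Xaf1* (0.991), *Parp14* (0.991), *Ifit3* (0.990), *Ube2l6* (0.990), *Mx2* (0.990) and *H2-Q1* (0.988). *Trim30a* had an RPKM of 1.97 in shMLL1 cells at day 0 and of 77.9 in the same line at day 5, its lowest and highest level. These values describe 8 libraries that share lines and days, so they are given without a p. All 9 members were highest in shMLL1 and second highest in shNFIB cells at day 5, so these libraries weigh strongly in r.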

How the data were processed

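RNA-seq was done in C3H10T1/2 cells of 4 lines at 2 days, with 1 library per condition. The authors mapped the reads to GRCm38 and deposited 1 RPKM value per gene and library. No column of another sample was found. The study's methods describe a filter of RPKM over 1 and quantile normalization, and the latter was run as an alternative. The deposited RPKM values were turned back into reads with the merged annotated exons of each gene (GENCODE M21), and from 96.2% to 96.6% of values of 1 to 1000 reads were whole within a tolerance of 0.02. A fitted length was used for *Iigp1*. Log2 ratios were taken without a pseudocount, with exact 95% Clopper-Pearson intervals conditional on the sum of reads. Such intervals cover counting error only and leave out PCR duplicates. List medians used log2(RPKM + 0.1), which understates changes of low genes. Changes past 2-fold were counted, with no p-value, since 1 library per condition gives no spread.

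The members and gene lists were chosen with earlier results of these data known. Named are all members, the targeted genes, expressed genes of the receptor, factor, inhibitor and other GTPase lists, the 4 most expressed of each other list, and the 8 genes most like the members. The alternatives were no filter, a filter of 2, 0.1 or 1 added, quantile and median-of-ratios scaling and the ratio to *Gapdh*. A further gene of the factor list is not reported here. The sum of *Tgtp1* and *Tgtp2* reads was chosen after seeing the data. Python 3.11.15, numpy 2.4.6, pandas 2.3.3, scipy 1.17.1 and matplotlib 3.10.9 were used, tested on simulated data.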

Additional observations from a re-analysis of the deposited data

Results flagged for a closer look

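In shMLL1 cells 9 of the 9 GTPases were below shControl at day 0 and above it at day 5, with both intervals off 0. In shNFIB cells this held for 8 of the 9, all but *Tgtp1*, which was above shControl on both days. Of 11448 expressed genes, 11.1% in shMLL1 and 6.59% in shNFIB cells did the same. These genes were looked at again because the difference from shControl had opposite directions on the 2 days. With 1 library per condition the difference between the days was not tested. When divided by *Gapdh*, *Gbp2*, *Gbp3*, *Gbp7*, *Igtp* and *Irgm1* were above shControl in shNFIB cells on both days.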

How the results depend on the processing

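No paired analysis was possible because each comparison sets 1 library against 1 other and the labels give no replicates, and leaving out a library would end its comparisons. Adding 1 to each RPKM brought the number of GTPases more than 2-fold lower at day 0 from 5 to 0 in shKDM4D, from 3 to 0 in shNFIB and from 8 to 1 in shMLL1 cells, since the members are low at day 0 and an added 1 shrinks low ratios. The ratio to *Gapdh* gave 1 higher and 1 lower in shNFIB cells at day 0, in place of 0 and 3. All other counts past 2-fold stayed equal or within 1.5 times their value under the 7 alternatives. Of 120 single ratios and medians, 69 moved outside their interval with 1 added, 58 with the ratio to *Gapdh*, 19 with quantile normalization, 3 with 0.1 added and 1 with median-of-ratios scaling. Of 12 *Tgtp1* ratios, 5 moved when *Tgtp2* reads were added, and the *Tgtp1* change in shKDM4D cells was then 0.54 in place of -0.32. Intervals cover counting error, so the spread between cultures and clones of 1 line is unknown, and ratios of *Iigp1* from 1 or 2 reads are the least precise.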
